A study of Homo sapiens with 2 samples.

Results

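The 10 genes examined here encode the FOS and JUN subunits of the transcription factor AP-1 (FOS, FOSB, FOSL1, FOSL2, JUN, JUNB and JUND), the related factor ATF3, and the zinc finger factors EGR1 and EGR2. They were taken by name from the 24124 genes of the transcript table, where they have 52 transcripts, and all 10 reached 1 RPKM in at least 1 library. RPKM, the level used here, divides reads by the length of the transcript and the depth of its library. The study measured poly(A) RNA of the SAS line, an established line of human oral cancer cells, in 1 ASC library and 1 control library. ASC cells carried, as a stable line, pLKO.AS2_ASC, in which ASC sits in the vector, and control cells carried pLKO.AS2 alone. Both were kept in DMEM with 10% FBS, 200 µg/ml G418 and 2 µg/ml puromycin, and so shared both selection drugs. Neither vector's promoter nor whether a line is 1 clone is given in the sources used here. The comparison asks how added ASC, the inflammasome adaptor encoded by PYCARD, goes with gene expression in these cells.

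AP-1 is a dimer of basic leucine zipper proteins. FOS proteins need a JUN partner to bind DNA, while JUN proteins can also pair with each other or with ATF factors, and the dimers read the letters TGANTCA or the cyclic AMP response element. Most of these genes belong to the immediate early class, which growth factors and stress switch on without new protein synthesis, in part through SRF bound to CArG boxes. FOSL1 (FRA1) is best known from invasive epithelial tumours and FOSL2 (FRA2) from differentiation, JUN and JUNB often act in opposite directions on growth, and EGR1 is a common readout of ERK signalling.

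PYCARD stood at 267 RPKM in ASC cells and 1.36 RPKM in control cells, which matches the labels of both. The ASC library had 31426491 listed reads and the control library 31289581. For the 12471 genes that reached 1 RPKM in ASC or control cells, the log2 ratios between the 5th and the 95th percentile ran from -0.41 to 0.42. Log2 ratios are of RPKM + 1, ASC over control, unless they are said to be of reads. All 8 epithelial markers checked were above 1 RPKM, summing to 3398 RPKM in ASC cells and 2660 RPKM in control cells. Much of the sum is KRT8, with 1136 RPKM in ASC cells and 763 RPKM in control cells, and KRT18, with 1363 RPKM in ASC cells and 967 RPKM in control cells. The basal markers did not all go 1 way. KRT5 and TP63 were lower in ASC cells, with log2 ratios of -0.44 and -0.24, and KRT14 was higher, at 0.42. EPCAM was at 193 RPKM in both. The part of these markers in the differences below was not tested. Of 8 markers of other cell types, CD68, which other cells can also make, stood at 24.1 RPKM in ASC cells and 25.9 RPKM in control cells. PTPRC, PECAM1 and COL1A1 were under 1 RPKM in both, and the other 4 are not among the transcripts listed. Since each condition has a single library, no test of the conditions was possible, and each 95% interval below covers counting error only.

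Promoter windows of 300 bases, from RefSeq on GRCh38.p14 and reaching from 250 bases before the start to 50 after it, were available for 9 of the 10 genes, all but FOSL1. They were searched on both strands for 4 motifs: the CArG box, TGACGT (the core of the cyclic AMP response element), TGACATCA (the element known from the JUN promoter) and TGANTCA (the AP-1 element). TGACGT lies within the full element TGACGTCA, and no other matches in these windows overlapped. Of all 35116 windows, 1.29% held a CArG box, 7.98% TGACGT, 2.61% TGACATCA and 7.71% TGANTCA. The 4 windows below are shown because they belong to the start with the clearest difference within a gene (the distal start of ATF3), to a gene with a higher level in ASC cells that shares its element (JUN), and to EGR1 and EGR2, which share elements but stood apart in level and in direction. Capitals mark any of the 4 motifs, and each sequence is 5′ to 3′ on the strand of its gene.

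JUN, chr1:58783998-58784297, minus strand: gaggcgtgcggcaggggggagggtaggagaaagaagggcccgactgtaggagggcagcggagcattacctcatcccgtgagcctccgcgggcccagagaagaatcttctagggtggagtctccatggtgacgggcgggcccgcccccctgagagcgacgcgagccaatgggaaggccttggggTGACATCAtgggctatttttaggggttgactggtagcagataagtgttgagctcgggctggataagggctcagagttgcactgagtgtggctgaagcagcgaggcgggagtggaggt

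ATF3, distal start, chr1:212565157-212565456, plus strand: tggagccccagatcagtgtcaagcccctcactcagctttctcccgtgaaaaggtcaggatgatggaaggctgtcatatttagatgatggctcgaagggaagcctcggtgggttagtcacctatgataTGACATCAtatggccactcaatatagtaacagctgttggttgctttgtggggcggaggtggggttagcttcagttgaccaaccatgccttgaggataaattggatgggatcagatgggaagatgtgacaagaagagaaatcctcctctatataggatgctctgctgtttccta

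EGR1, chr5:138465229-138465528, plus strand: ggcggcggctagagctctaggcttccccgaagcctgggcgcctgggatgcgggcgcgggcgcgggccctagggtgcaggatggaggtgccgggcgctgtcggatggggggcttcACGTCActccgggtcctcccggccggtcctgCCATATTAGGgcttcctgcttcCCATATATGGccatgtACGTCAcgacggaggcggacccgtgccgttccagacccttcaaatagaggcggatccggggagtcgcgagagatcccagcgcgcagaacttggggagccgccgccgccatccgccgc

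EGR2, chr10:62816317-62816616, minus strand: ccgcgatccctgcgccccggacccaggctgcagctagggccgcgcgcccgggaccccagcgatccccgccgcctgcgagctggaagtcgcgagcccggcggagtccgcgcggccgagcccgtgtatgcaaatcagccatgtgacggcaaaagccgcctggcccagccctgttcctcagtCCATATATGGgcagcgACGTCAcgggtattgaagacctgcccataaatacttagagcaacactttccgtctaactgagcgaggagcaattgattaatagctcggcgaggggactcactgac

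JUN held TGACATCA 67 bases before the RefSeq start of its window, and the distal window of ATF3 held it 123 bases before its own. These starts differ from those of the transcripts counted here. JUN-201 starts at 58784327 on the minus strand, so the whole JUN window lies within that transcript. ATF3-206 starts at 212565334, upstream of the RefSeq start, so the motif lies fewer than 123 bases before it. EGR1 held 2 CArG boxes and TGACGT at 2 places, and EGR2 held 1 of each. TGACGT was also found in the windows of FOS, FOSB, FOSL2 and JUND, FOSL2 alone held TGANTCA, and JUNB held none of the 4. These are matches of letters only, and no binding was measured. The windows shown were chosen after the ratios were seen, and no link between a motif and a level was tested.

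The factors went both ways between the libraries. None of the 10 was at least 2-fold higher and none at least 2-fold lower on the log2(RPKM + 1) scale, where 0.617% and 0.265% of all genes were. None reached 1.5-fold in either direction on that scale, against 2.38% of all genes higher and 1.81% lower. With shares this small, a count of none among 10 genes says little about the factors. Of all genes, 4.71% had a log2 ratio at least as high as FOSL1, 7.89% as ATF3 and 8.11% as JUN. For EGR1 and JUND the shares were 36.9% and 41.4%. At least as low were 4.21% for EGR2, 10.6% for JUNB and 13.1% for FOS. For FOSL2 and FOSB they were 19.3% and 28.5%. Log2 ratios were above 0 for 5 factors and below 0 for 5 (52% and 48% of all genes), with a median of -0.03, and 0.01 over all genes compared. The 95% interval of the reads ratio lay above 0 for FOSL1, JUN, ATF3 and EGR1. It lay below 0 for FOS, FOSL2, JUNB and EGR2, which makes 8 of 10. EGR2 passed the 1 RPKM filter only through the control library, where it was higher. Over all genes 28.5% had an interval above 0 and 27% below it, together 55.5%. An interval that leaves out 0 was thus common at this depth.

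**Figure D1:**
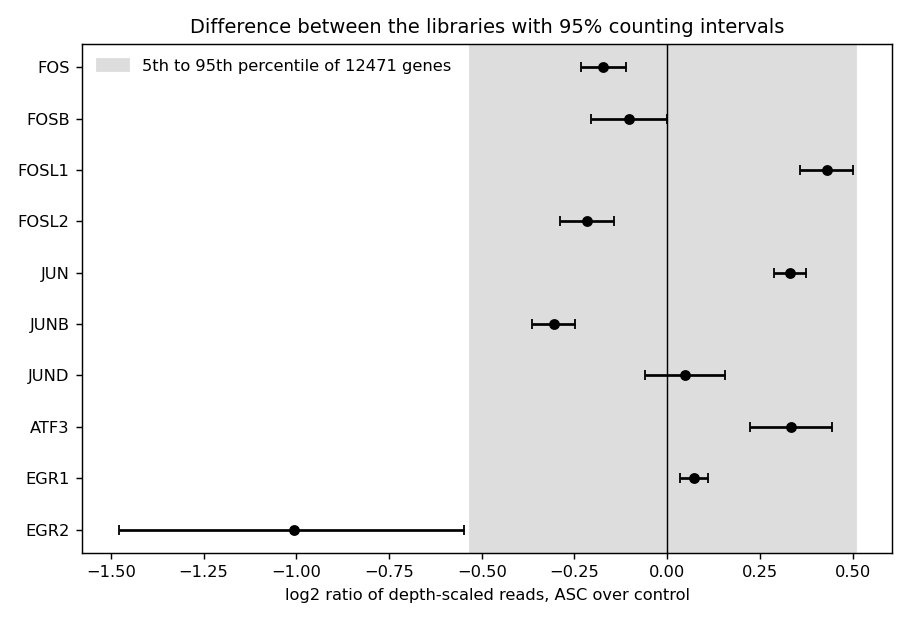
Log2 ratio of depth-scaled reads, ASC over control, for each factor, with 95% counting intervals as bars. Grey marks the 5th to 95th percentile of all 12471 genes, and EGR2 is the factor whose point (-1.01) lies outside it.

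**Figure D2:**
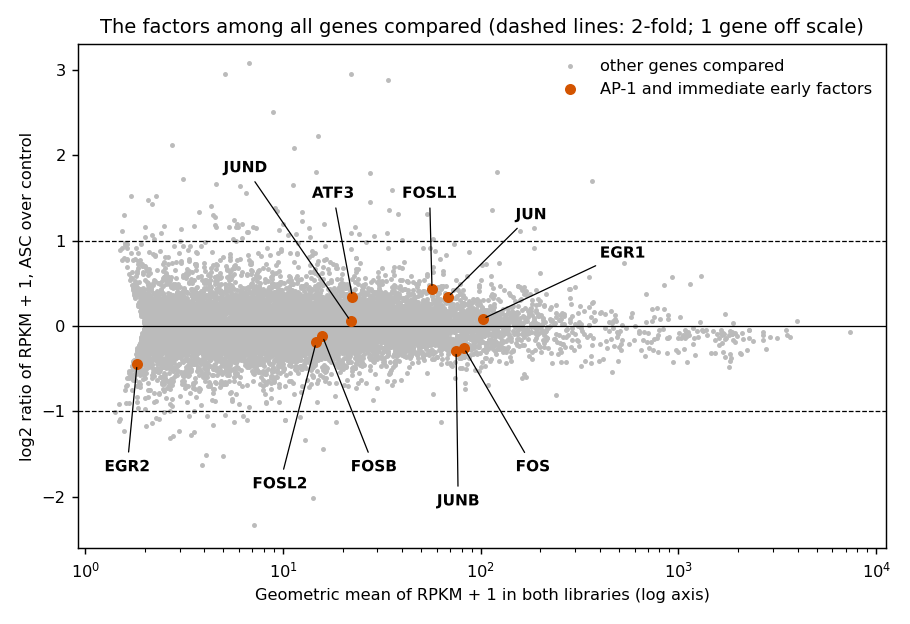
Log2 ratio of RPKM + 1, ASC over control, against the mean level of each gene on a log axis, with the 10 factors in orange. All 10 lie within the 2-fold lines, and PYCARD alone is off the scale.

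FOSL1 had the highest ratio of the 10. Its level was 64.9 RPKM in ASC cells, from 3694 reads, and 47.8 RPKM in control cells, from 2729 reads. Its log2 ratio was 0.43, and that of reads was 0.43 (95% interval 0.36 to 0.50). Of all genes compared, 4.71% had a log2 ratio at least as high. In hg38, FOSL1 (ENSG00000175592.8) spans 65892049 to 65900573 on chromosome 11, minus strand. Its main transcript FOSL1-201, with 271 codons, took 83.3% of its reads in ASC cells and 83.6% in control cells, so the division of reads among its forms was close. A minor form, FOSL1-204, stood at 2.18 RPKM in ASC cells and 0.884 RPKM in control cells.

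FOSL2, a close relative of FOSL1 in the family, lay on the other side of 0. Its level was 12.8 RPKM in ASC cells, from 2772 reads, and 14.7 RPKM in control cells, from 3206 reads. The log2 ratio of reads was -0.22 (95% interval -0.29 to -0.14). Of its 2 main forms, FOSL2-201 had 1884 reads in ASC cells and 2247 in control cells, and FOSL2-202 had 865 in ASC cells and 931 in control cells. FOSL2 (ENSG00000075426.11) spans 28392448 to 28417312 on the plus strand of chromosome 2. The FOSL1 to FOSL2 ratio of reads was 1.33 in ASC cells and 0.851 in control cells, a 1.57-fold difference (95% interval 1.46 to 1.68) that does not depend on how the libraries are scaled.

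FOS, the founding member, was lower in total, but its forms did not all lie on 1 side of 0. Summed over 9 transcripts, its level was 74.2 RPKM in ASC cells, from 4195 reads, and 88.9 RPKM in control cells, from 4707 reads, a log2 ratio of -0.26. That of reads was -0.17 (95% interval -0.23 to -0.11). The spliced main form FOS-201, with 380 codons, went the other way, at 34.1 RPKM in ASC cells and 31.5 RPKM in control cells. Its log2 ratio of reads was 0.10 (95% interval 0.02 to 0.18). The 6 forms that hold bases of an intron of FOS-201 together took 1550 reads in ASC cells and 2233 in control cells, at a log2 reads ratio of -0.53 (95% interval -0.63 to -0.44). These forms took 37.0% of FOS reads in ASC cells (95% interval 35.5% to 38.4%) and 47.4% in control cells (46.0% to 48.9%). The lower total of FOS thus lay in reads assigned to forms with intron bases, and the sign of the FOS ratio depends on whether these forms are counted. The most abundant of them, FOS-206 and FOS-208, are annotated as protein-coding. FOS-206 took 14.7% of FOS reads in ASC cells and 19.2% in control cells, and FOS-208 took 12.4% in ASC cells and 15.7% in control cells. Over the whole table, transcripts annotated as retained introns took 4.94% of reads in ASC cells and 5.23% in control cells. FOS (ENSG00000170345.9) spans 75278774 to 75282230 on the plus strand of chromosome 14.

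FOSB, which is often induced together with FOS, stood at 14.2 RPKM in ASC cells, from 1499 reads, and 15.5 RPKM in control cells, from 1602. Its log2 ratio of reads was -0.10, with an interval that reached 0. Its reads were divided over 13 listed transcripts. The full-length form FOSB-201, with 338 codons, held 8.08% of FOSB reads in ASC cells (95% interval 6.74% to 9.57%, 121 reads) and 3.80% in control cells (2.92% to 4.86%, 60.9 reads). It was under 1 RPKM in both, at 0.900 RPKM in ASC cells and 0.451 RPKM in control cells. FOSB-202, FOSB-204 and FOSB-210 have the same start and end. They held 6.08%, 4.69% and 5.57% of FOSB reads in ASC cells and 3.35%, 4.45% and 4.54% in control cells. FOSB-203, in which the first exon is joined to the last without exons 2 and 3, held 15.7% in ASC cells (236 reads) and 25.3% in control cells (405 reads). The most abundant forms lay on either side of 0. FOSB-206 had 448 reads in ASC cells and 379 in control cells, and FOSB-205, a retained intron form, had 331 in ASC cells and 461 in control cells. Delta FOSB, a shortened protein best known from brain, arises when 140 bases of the last exon are spliced out (chromosome 19, 45472707 to 45472846). The listed transcript of 237 codons with that splice, FOSB-211, was given under 1 read in both libraries. The only other one, FOSB-212, starts later, has 188 codons and holds 753 intron bases. It had 21.5 reads in ASC cells and 25.9 in control cells. FOSB (ENSG00000125740.13) spans 45467995 to 45475179 on the plus strand.

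JUN and JUNB lay on opposite sides of 0. JUN, the main activating subunit, stood at 75.5 RPKM in ASC cells, from 9537 reads, and 59.6 RPKM in control cells, from 7551 reads. Its log2 ratio of reads was 0.33 (95% interval 0.29 to 0.37). JUNB, a weaker activator, stood at 66.8 RPKM in ASC cells, from 4338 reads, and 82.0 RPKM in control cells, from 5340 reads. Its log2 ratio of reads was -0.31 (95% interval -0.36 to -0.25). The RPKM ratio of JUN to JUNB was 1.13 in ASC cells and 0.727 in control cells, so the order of these subunits differed between the libraries. The ratio of their reads differed 1.55-fold (95% interval 1.48 to 1.63). Each has 1 transcript, so neither value rests on dividing reads among forms. JUN (ENSG00000177606.6) spans 58780788 to 58784327 on chromosome 1, minus strand. JUNB (ENSG00000171223.5) spans 12791496 to 12793315 on chromosome 19, plus strand. An exon of the HOOK2 transcript ENST00000593143.5 overlaps JUNB by 259 bases on the other strand. The libraries do not mark strand, and that transcript was given 1.45 reads in ASC cells and 1.56 in control cells.

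JUND, the subunit that is usually present in resting cells, was close in both. It stood at 21.4 RPKM in ASC cells, from 1423 reads, and 20.6 RPKM in control cells, from 1371 reads, and the 95% interval of its log2 ratio of reads, -0.06 to 0.16, spans 0. JUND (ENSG00000130522.5) spans 18279760 to 18281622 on chromosome 19, minus strand.

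**Figure D3:**
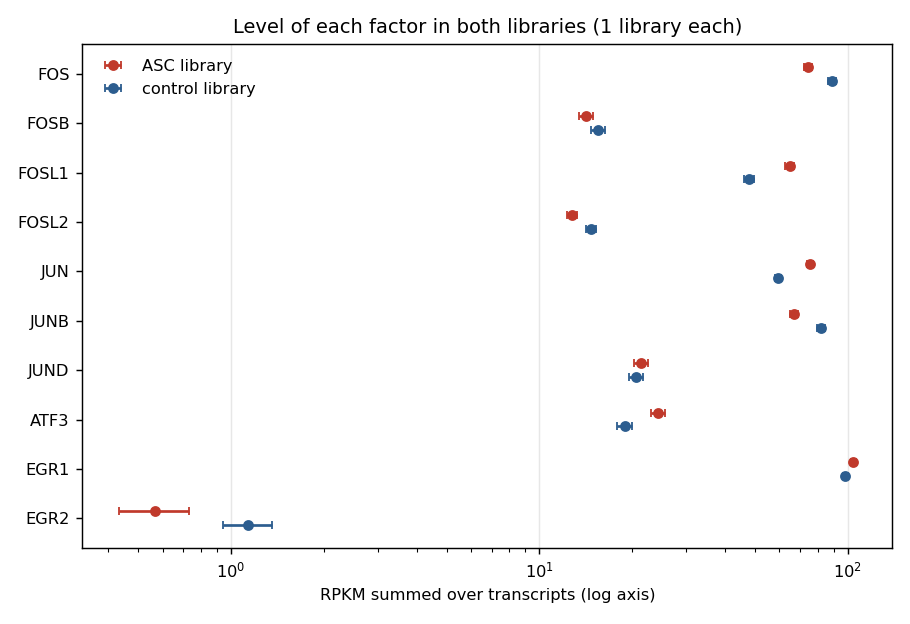
RPKM summed over transcripts for each factor on a log axis, ASC library in red above control library in blue, with 95% counting intervals as bars. EGR1 is highest in both (104 RPKM in ASC cells and 98.4 RPKM in control cells) and EGR2 lowest (0.567 RPKM in ASC cells and 1.13 RPKM in control cells), while JUN and JUNB change order.

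The summed RPKM of both families hardly differed although single members did. The 4 FOS family genes summed to 166 RPKM in ASC cells and 167 RPKM in control cells, and the 3 JUN family genes to 164 RPKM in ASC cells and 162 RPKM in control cells. In reads, which are not divided by length, the FOS family had 12160 in ASC cells and 12244 in control cells. The JUN family had 15298 reads in ASC cells and 14262 in control cells. Within the FOS family, FOSL1 made up 39.1% in ASC cells and 28.6% in control cells, while FOS made up 44.7% in ASC cells and 53.3% in control cells. Within the JUN family, JUN made up 46.1% in ASC cells and 36.8% in control cells, while JUNB made up 40.8% in ASC cells and 50.6% in control cells. These are shares of mRNA per length and not of protein, and the FOS shares include the forms with intron bases.

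ATF3, a stress-induced factor that pairs with JUN proteins, stood at 24.2 RPKM in ASC cells, from 1523 reads, and 18.9 RPKM in control cells, from 1203 reads. Its log2 ratio of reads was 0.33 (95% interval 0.22 to 0.44). Most of this difference was in transcripts from its distal first exon, which lies 43336 bases upstream of the proximal one. Their 344 reads in ASC cells and 157 in control cells gave a log2 ratio of 1.13 (95% interval 0.85 to 1.41), nearly all in the form ATF3-206. Transcripts from the proximal first exon had 721 reads in ASC cells and 609 in control cells, a log2 ratio of 0.24 (95% interval 0.08 to 0.40). The distal forms took 22.6% of ATF3 reads in ASC cells (95% interval 20.5% to 24.8%) and 13.1% in control cells (11.2% to 15.1%). The forms ATF3-206 and ATF3-202, distal and proximal, each hold 181 codons. A further 5 transcripts, which start inside the gene, had 458 reads in ASC cells and 437 in control cells. ATF3 (ENSG00000162772.16) spans 212565334 to 212620777 on the plus strand of chromosome 1, and the distal window printed above holds the annotated start of ATF3-206.

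**Figure D4:**
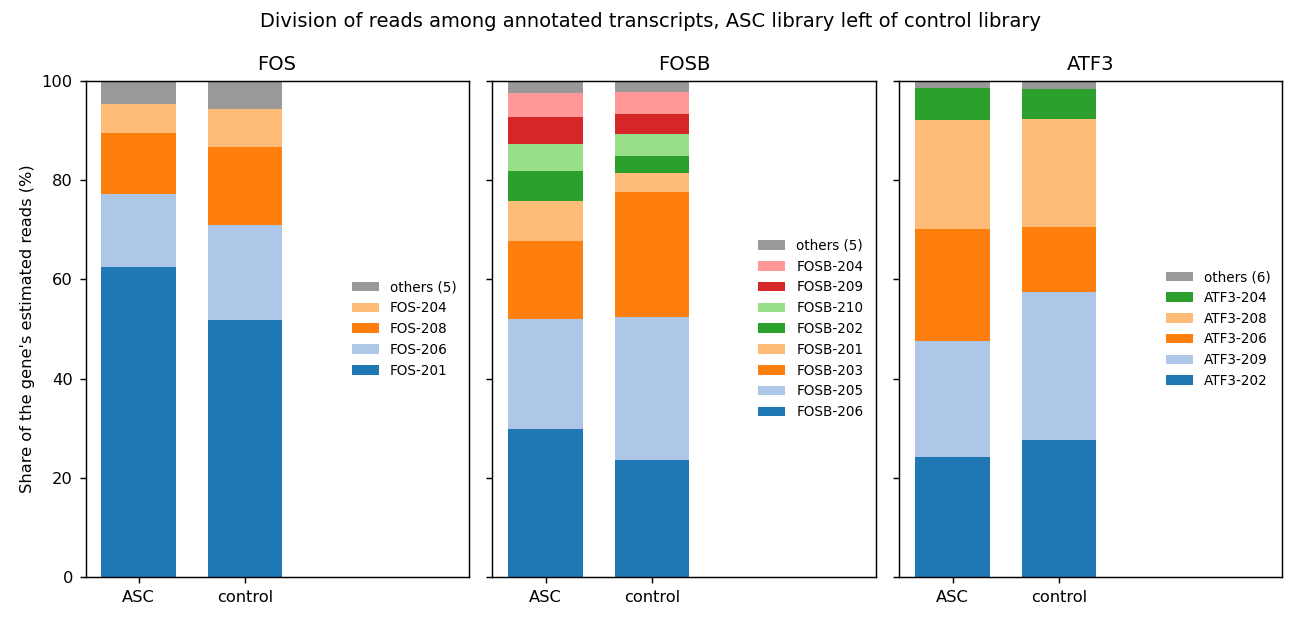
Share of each gene's estimated reads (%) taken by its annotated transcripts, ASC library left of control library, with forms under 3% in both libraries pooled in grey. FOS-201 takes 62.5% of FOS reads in ASC cells and 51.7% in control cells, FOSB-203 takes 15.7% in ASC cells and 25.3% in control cells, and ATF3-206 takes 22.6% in ASC cells and 13.1% in control cells.

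The shifts between forms were set against all genes with at least 2 listed transcripts and 1000 reads in each library. Of 5711 such genes, 27.3% had a transcript whose share differed by 5 points or more, and the median of the largest shift was 2.81 points. FOS, FOSB and ATF3, which are 3 of the 6 factors that could be measured so, passed 5 points, with largest shifts of 10.8, 9.55 and 9.53 points. As large a shift was seen in 4.20% of the genes for FOS, 5.97% for FOSB and 6.06% for ATF3. FOSL1, FOSL2 and JUND had largest shifts of 1.52, 2.18 and under 1 point. At the level of single transcripts, 26 of the factors' transcripts reached 1 RPKM in at least 1 library. On log2(RPKM + 1), 2 of them, ATF3-206 and FOSL1-204, were at least 1.5-fold higher (5.66% of all 34527 transcripts). FOSL1-204 passed the 1 RPKM filter only through the ASC library, where it was higher. None was 1.5-fold lower on that scale (5.34% of all transcripts). In reads, FOSB-203, EGR2-201 and FOS-204 were past 1.5-fold lower, with log2 ratios of -0.79, -0.96 and -0.61. EGR2-201 passed the 1 RPKM filter only through the control library, where it was higher. ATF3-206 and FOSL1-204 had 1.13 and 1.28 in reads. The share of all transcripts past 1.5-fold in reads was not counted, so these values in reads have no background. Reads in exons that forms share are divided by a model, so these shares carry error beyond counting. The read totals of all 10 genes were whole numbers within 0.05 reads, whereas their summed RPKM also depends on how reads were divided among forms of different length.

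EGR1 was the most abundant of the factors and nearly equal in both libraries. Its level was 104 RPKM in ASC cells, from 11666 reads, and 98.4 RPKM in control cells, from 11050 reads. Its log2 ratio of reads was 0.07 (95% interval 0.03 to 0.11). EGR1 (ENSG00000120738.7) has 1 transcript, on the plus strand of chromosome 5 from 138465490 to 138469315. EGR2, best known from myelinating cells and hindbrain patterning, was the least abundant. Its level was 0.567 RPKM in ASC cells, from 60 reads, and 1.13 RPKM in control cells, from 120 reads. In plain RPKM this is 2.00-fold lower in ASC cells, with a log2 ratio of reads of -1.01 (95% interval -1.48 to -0.55), whereas log2(RPKM + 1), a scale that shrinks the ratios of weakly expressed genes, gave -0.44. Of all genes compared, 4.21% had a log2(RPKM + 1) ratio at least as low. EGR2 was compared only because its control level, the higher one, passed 1 RPKM. EGR2 (ENSG00000122877.15) spans 62811996 to 62819167 on chromosome 10, minus strand, and nearly all its reads were given to EGR2-201, with 58.7 in ASC cells and 114 in control cells. The windows of EGR1 and EGR2 printed above shared 2 of the motifs searched. The RPKM of EGR1 was 184 times that of EGR2 in ASC cells and 86.9 times in control cells. The ratio of their reads differed 2.11-fold (95% interval 1.55 to 2.88).

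Ordered by RPKM in ASC cells, the factors were EGR1, JUN, FOS, JUNB, FOSL1, ATF3, JUND, FOSB, FOSL2 and EGR2. In control cells the order was EGR1, FOS, JUNB, JUN, FOSL1, JUND, ATF3, FOSB, FOSL2 and EGR2. Neighbours with overlapping counting intervals were JUN and FOS, and JUNB and FOSL1, in ASC cells. In control cells they were JUND and ATF3, and FOSB and FOSL2. The place of FOS rests on the sum over its forms, since FOS-201 alone would stand below FOSL1 in both libraries.

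A further 4 lists of genes around these factors were examined beside them. Of 18 other dimer partners in the basic leucine zipper class, 11 were compared, 7 lay above 0 and 4 below (52% and 48% of all genes). Their median log2 ratio was 0.01, with 0.11 in CPM and 0.09 when only the highest transcript of each gene counts. MAFK, a small MAF protein without an activation domain, had 30.0 RPKM in ASC cells and 16.8 RPKM in control cells, the only compared partner past 1.5-fold (2.38% of all genes). NFE2L2, which encodes the antioxidant factor NRF2 that pairs with small MAF proteins, stood at 59.5 RPKM in ASC cells and 82.7 RPKM in control cells. The log2 ratios of the other small MAF genes MAFF and MAFG were 0.37 and 0.15, and those of DDIT3 and NFE2L1 were 0.27 and 0.23. BATF, BATF2, BATF3, MAF, MAFA and NRL were under 1 RPKM in both libraries.

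Of the other immediate early genes that were compared, most lay above 0. Of 22, 17 were compared, 14 were above 0 (52% of all genes were), 2 were at least 1.5-fold higher (2.38% of all genes) and none was 1.5-fold lower (1.81%). The median log2 ratio was 0.21, and 0.10 with no filter on low values. The Krüppel-like factor genes KLF4 and KLF6 were these 2. KLF4 stood at 5.53 RPKM in ASC cells and 3.15 RPKM in control cells, and KLF6 at 36.8 RPKM in ASC cells and 23.4 RPKM in control cells. CTGF, a matricellular protein gene, had 10.9 RPKM in ASC cells and 6.92 RPKM in control cells. Its log2 ratio was 0.58, just under 1.5-fold on this scale. The survival gene IER3 and the MAP kinase phosphatase gene DUSP1 had log2 ratios of 0.47 and 0.42. The antiproliferative gene BTG2 had the lowest, -0.50, at 3.34 RPKM in ASC cells and 5.13 RPKM in control cells.

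**Figure D5:**
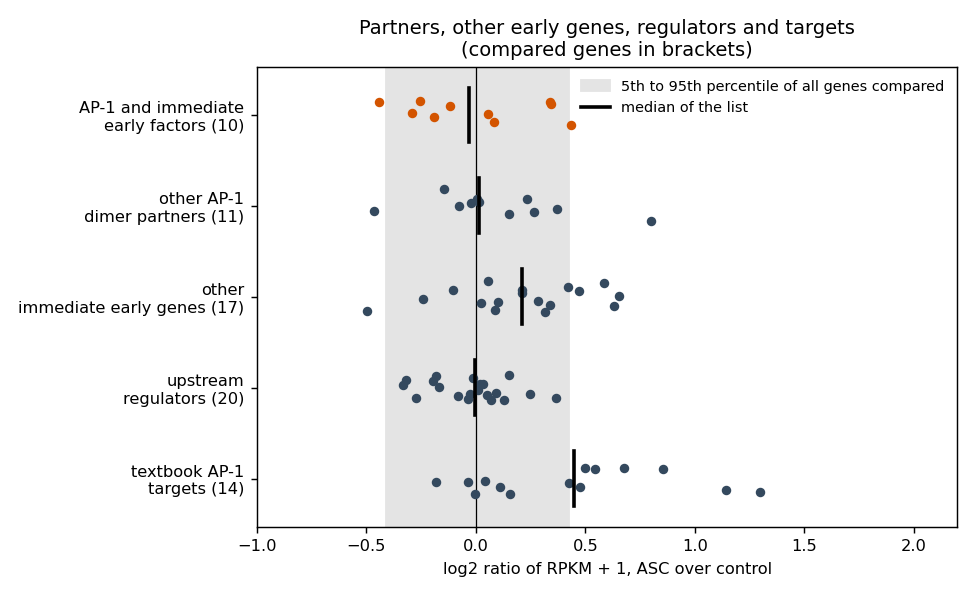
Log2 ratio of RPKM + 1, ASC over control, for the 10 factors and for the compared genes of 4 lists, with each list's median as a black line. Grey marks the 5th to 95th percentile of all genes compared. The median of the AP-1 target list (0.45) is the highest of the 5, and those of the factors (-0.03) and the upstream regulators (-0.0025) are near 0.

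The regulators upstream of these factors were close in both libraries. All 20 were compared, 10 lay above 0 and 10 below, none passed 1.5-fold, and the median was -0.0025. ELK3, a partner of SRF at the CArG box, had the highest log2 ratio, 0.37. The EGR co-repressor gene NAB1 had -0.33, the JNK pathway kinase gene MAP2K7 -0.32 and the MEK2 gene MAP2K2 -0.20. The SRF coactivator genes MKL1 and MKL2 had 0.25 and -0.27.

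Of 22 genes known as AP-1 targets, 14 were compared, 11 lay above 0 and 3 below, 4 were at least 1.5-fold higher and none was 1.5-fold lower. Of all genes compared, 52% lay above 0 and 48% below, 2.38% were at least 1.5-fold higher and 1.81% lower. The median log2 ratio of the list was 0.45. The 4 past 1.5-fold encode 2 cytokines and 2 EGFR ligands. IL6 stood at 5.94 RPKM in ASC cells and 1.83 RPKM in control cells, and AREG at 274 RPKM in ASC cells and 124 RPKM in control cells, log2 ratios of 1.30 and 1.14, both past 2-fold (0.617% of all genes). CXCL8 and HBEGF had log2 ratios of 0.86 and 0.68. The urokinase gene PLAU and its receptor gene PLAUR had 0.54 and 0.50. The metalloproteinase genes MMP3, MMP9, MMP10 and MMP13 were under 1 RPKM in both libraries, and MMP1 had a log2 ratio of -0.18. In reads, ASC then control, MMP3 had 51 and 19, MMP9 1 and 2, MMP10 5 and 10, and MMP13 17 and 19. The differentiation genes IVL, TGM1 and SPRR1B were also under 1 RPKM. With no filter on low values, the median of this list was 0.13. Many of these genes also answer to NF-kB or other factors, and their link to the AP-1 subunits was not tested.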

How the data were processed

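Poly(A) RNA was sequenced in 1 ASC and 1 control library. TRIzol extraction and an unstranded TruSeq kit were used, per the labels' protocols. Per the file headers, the authors deposited estimated counts of reads per transcript (fractional) and the RPKM of each transcript. Coordinates are hg38, per the submitters' processing notes. Which aligner, quantifier and annotation were used is not given in the sources used here. All 52 transcripts of the 10 genes had the same version and start in GENCODE release 29, with stops 1 base past its ends, so printed ends are the stop minus 1. Transcript names and exons come from that release.

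RPKM was summed per gene, and the genes that reached 1 RPKM in ASC or control cells were compared on log2(RPKM + 1). In 284 of 285 lines whose gene name had become a date, the name was restored through the transcript identifier. Intervals of read ratios are exact (Clopper-Pearson) binomial intervals on rounded estimated counts, those of levels are exact Poisson intervals, and those of a difference between ratios use a normal approximation of the log odds ratio. They leave out preparation and assignment error, and PCR reads are not independent molecules. The interval procedure was tested on simulated data. Named list genes are the 6 per list, or fewer, whose log2 ratio lay farthest from 0, and others named were chosen after their values were seen. Some list genes are not reported here. The genes and lists were chosen with earlier results of these data known. Alternatives were other pseudocounts, filters, scalings, units and gene summaries. Python 3.11.15, pandas 2.3.3, scipy 1.17.1 and edgeR 4.0.16 were used.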

Additional observations from a re-analysis of the deposited data

How the results depend on the processing

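Under 9 alternatives, FOSL1, JUN, ATF3, EGR1 and JUND kept log2 ratios above 0 and JUNB, FOSL2 and EGR2 below it, wherever the gene was compared. Those of FOSL1 ranged from 0.42 to 0.44, of JUN from 0.33 to 0.34, of JUNB from -0.30 to -0.28, and of EGR2 from -0.88 to -0.21. FOS was 0.11 when its highest transcript replaced the sum, and FOSB was 0.020 with protein-coding transcripts only, a setting chosen after seeing the data, and -0.40 with its highest transcript. These settings leave out forms by construction. The median of the 10 factors, -0.03, was 0.056 with a filter at 5 RPKM, which drops EGR2, 0.069 with the highest transcript and 0.038 with protein-coding transcripts only. The FOS family sum, 0.995 times that of the control library, was 1.15 times it with the highest transcript and 1.01 times it with protein-coding transcripts only. The JUN family sum, 1.01 times that of the control library, was 1.07 times it with CPM. With a pseudocount of 0.1 RPKM, and with CPM, 1 factor, EGR2, was past 1.5-fold lower. The median of the upstream regulators, -0.0025, was 0.00033 with TMM and 0.019 with the highest transcript, and that of the AP-1 targets, 0.45, was 0.13 with no filter. With no filter that of the other immediate early genes, 0.21, was 0.10, and that of the dimer partners, 0.01, was 0.11 with CPM and 0.09 with the highest transcript.

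Of all genes, 77 were 2-fold higher and 33 lower. A pseudocount of 0.1 gave 160 and 127, one of 3 gave 34 and 9, CPM gave 121 and 65, and a filter at 5 RPKM gave 17 lower. Apart from the forms and genes that a setting leaves out, the cause was not tested. No paired analysis was possible because each group has 1 library. For the same reason no library could be left out. Depth limits EGR2 most, which had 60 ASC reads and 120 control reads.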
